A study of Rattus norvegicus with 11 samples.

Results

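The genes of the constitutive proteasome were followed in RNA of rat dorsal root ganglia. Members were all rows of the gene table whose symbol begins with Psma, Psmb, Psmc or Psmd followed by a digit, without the inducible subunits Psmb8, Psmb9 and Psmb10. The rule found 38 of 16811 genes. Of these, 37 had values high enough to be tested, and Psma8, a subunit of the testis proteasome, was at 0 in all 11 libraries. The rule reads symbols alone and no measured value. The gene family and the lists set beside it were, however, chosen with earlier results of these data known. Psmc3ip and Psma3l are not separate subunits of the complex: Psmc3ip encodes a DNA recombination cofactor named for its binding to Psmc3, and Psma3l is listed as a synonym of Psma3 in the current RefSeq annotation.

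The libraries came from Sprague-Dawley rats in 3 groups. The SNL plus UNC0638 group (n = 3) had its spinal nerve ligated and was treated with UNC0638, an inhibitor of the histone methyltransferases G9a and GLP, the SNL group (n = 4) had the ligation alone, and the Sham group (n = 4) had a sham operation. Ganglia of both ligated groups were from the left side and those of the Sham group from the right side, per the labels, and no group had UNC0638 without ligation. The sources used here give no age, sex, dose or times of treatment and sampling, and do not say whether libraries of a group came from separate animals, so that p-values measure the spread between these libraries, which may be technical.

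The 26S proteasome degrades proteins that carry chains of ubiquitin. Its 20S core is a barrel of outer alpha rings, which form the gate, and inner beta rings, whose subunits Psmb6, Psmb7 and Psmb5 cut the substrate with caspase-like, trypsin-like and chymotrypsin-like activity. The 19S cap holds a ring of ATPases (the Psmc genes), which unfold the substrate and open the gate, and non-ATPase subunits (most Psmd genes), which bind ubiquitin chains and remove them. Psmd5, Psmd9 and Psmd10 encode chaperones that assemble the ATPase ring and leave before the complex is complete. In sensory neurons, as in other long-lived cells that do not divide, the complex is part of how proteins are turned over along the axon.

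The promoters of the 3 catalytic subunits and of Psma3 are shown because 3 of these 4 hold the letters TGACNNNGC, an antioxidant response element as bound by the factors Nfe2l1 and Nfe2l2, of which Nfe2l1 is the known activator of proteasome genes when the complex is inhibited. Capitals mark TGACNNNGC and CCAAT, the box bound by the factor NF-Y, on either strand. Each run covers 250 bases before to 50 bases after the gene start in RefSeq on build GRCr8 and is printed 5′ to 3′ on the strand of the gene. They lie at chr15:32047330-32047629 on the minus strand (Psmb5), chr10:55737638-55737937 on the plus strand (Psmb6), chr3:42827421-42827720 on the minus strand (Psmb7) and chr6:95219499-95219798 on the plus strand (Psma3).
Psmb5: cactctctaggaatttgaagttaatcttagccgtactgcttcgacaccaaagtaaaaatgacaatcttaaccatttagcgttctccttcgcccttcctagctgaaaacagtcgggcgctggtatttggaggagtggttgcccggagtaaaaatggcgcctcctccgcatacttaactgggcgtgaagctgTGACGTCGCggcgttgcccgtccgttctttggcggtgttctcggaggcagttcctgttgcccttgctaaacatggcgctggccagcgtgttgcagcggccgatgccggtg
Psmb6: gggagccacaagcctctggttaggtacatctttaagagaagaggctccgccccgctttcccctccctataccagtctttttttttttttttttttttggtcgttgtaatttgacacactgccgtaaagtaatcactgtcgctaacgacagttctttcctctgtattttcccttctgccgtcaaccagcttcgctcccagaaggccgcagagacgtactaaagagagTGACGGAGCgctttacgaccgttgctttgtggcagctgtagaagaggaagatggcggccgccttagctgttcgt
Psmb7: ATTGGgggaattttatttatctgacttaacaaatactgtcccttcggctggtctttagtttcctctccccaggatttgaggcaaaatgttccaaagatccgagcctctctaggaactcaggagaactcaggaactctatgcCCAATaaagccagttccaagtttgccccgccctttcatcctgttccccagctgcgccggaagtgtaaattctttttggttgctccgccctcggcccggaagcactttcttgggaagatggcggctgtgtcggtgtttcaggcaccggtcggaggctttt
Psma3: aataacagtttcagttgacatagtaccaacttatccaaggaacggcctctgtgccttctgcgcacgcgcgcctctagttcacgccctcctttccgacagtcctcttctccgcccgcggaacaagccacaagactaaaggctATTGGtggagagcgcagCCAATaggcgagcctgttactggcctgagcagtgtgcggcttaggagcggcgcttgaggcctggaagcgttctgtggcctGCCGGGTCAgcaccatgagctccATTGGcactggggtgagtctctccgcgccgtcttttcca
Of the 38 members, 32 had a promoter in the RefSeq table. TGACNNNGC was found in 7 of the 32 (21.9%; Psma3, Psmb2, Psmb5, Psmb6, Psmd1, Psmd3 and Psmd9), against 12.2% of all 27457 promoters of the same length. It starts 60 bases before the gene start in Psmb5 and 24 bases before it in Psmb6. CCAAT was found in 17 of the 32 members (53.1%), against 37.7% of all promoters, and Psmb7 holds 2 copies. GAANNTTC, a core pair of the heat shock element, was found in 2 members (6.25%), against 8.34% of all promoters. Both strands were searched, none of these motifs overlapped another in the 4 promoters shown, and a match is a description of the letters, not of binding.

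The values are the authors' scaled counts per gene, with totals of 9450045 to 11347920 per library, behind which stand an estimated 6127894 to 24367797 reads. Fold changes are on the scale of log2(value + 1). A gene was called at an adjusted p under 0.05 by limma over 12087 genes. SNL plus UNC0638 replicate 1 stood apart: its 10 muscle markers summed to 78133, against 146 to 557 in the other libraries, and its nerve injury genes went against its label as a ligated library. These 8 genes summed to 3695 in it, against 10847 and 13484 in replicates 2 and 3 of its group, 25707 to 39551 in SNL and 3799 to 5038 in Sham. Atf3, a transcription factor of injured neurons, was at 265 in it, 1802 and 2393 in the other SNL plus UNC0638 libraries, 4914 to 7460 in SNL and 160 to 178 in Sham, and the neuropeptide gene Vip was at 8.07 in it, within the Sham range (3.41 to 14.6). All 8 were below every SNL library there, 4 of them (Sprr1a, Gal, Gap43 and Vip) no higher than in Sham and 4 (Atf3, Jun, Sox11 and Npy) above every Sham library. Its macrophage markers summed to 10821, within the SNL range (9827 to 18938) and above every Sham library (2657 to 5513). Results with UNC0638 are therefore also given without it. It was the lowest library of its group for 1 of 37 members. The third Sham library and the third SNL library departed from their own groups alike (r = 0.431 across genes, and genes are no replicates). SNL replicate 3 had an r of 0.429, -0.166 and -0.446 with SNL plus UNC0638 replicates 1, 2 and 3, and Sham replicate 3 of -0.102, 0.255 and -0.104. The likeness is thus not particular to the pair. Sham replicate 3 was the lowest Sham library for 28 of 37 members and SNL replicate 3 the lowest SNL library for 23, so that counts are also given below with a term that sets these 2 libraries and all SNL plus UNC0638 libraries apart. That grouping comes from the data, the members' own values among them, and not from the labels. Whether the SNL plus UNC0638 libraries belong with these 2 was not tested. Calls with the term therefore show how far results depend on it and are no independent test of the members.

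Together the 38 genes took the smallest part of a library with UNC0638. They held 0.440%, 0.395% and 0.419% of the scaled counts in the SNL plus UNC0638 libraries, 0.608%, 0.559%, 0.512% and 0.585% in the SNL libraries, and 0.655%, 0.720%, 0.517% and 0.701% in the Sham libraries. No SNL plus UNC0638 library reached the lowest SNL library, while SNL and Sham overlapped through Sham replicate 3. The group means were 0.418% ± 0.0229 (SD, n = 3) with UNC0638, 0.566% ± 0.0411 (SD, n = 4) in SNL and 0.648% ± 0.0918 (SD, n = 4) in Sham. Relative to the Sham mean, the average member stood at -0.60, -0.85 and -0.76 on the log2 scale in the SNL plus UNC0638 libraries, at -0.18, -0.25, -0.37 and -0.24 in the SNL libraries, and at 0.01, 0.19, -0.31 and 0.12 in the Sham libraries.

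**Figure D1:**
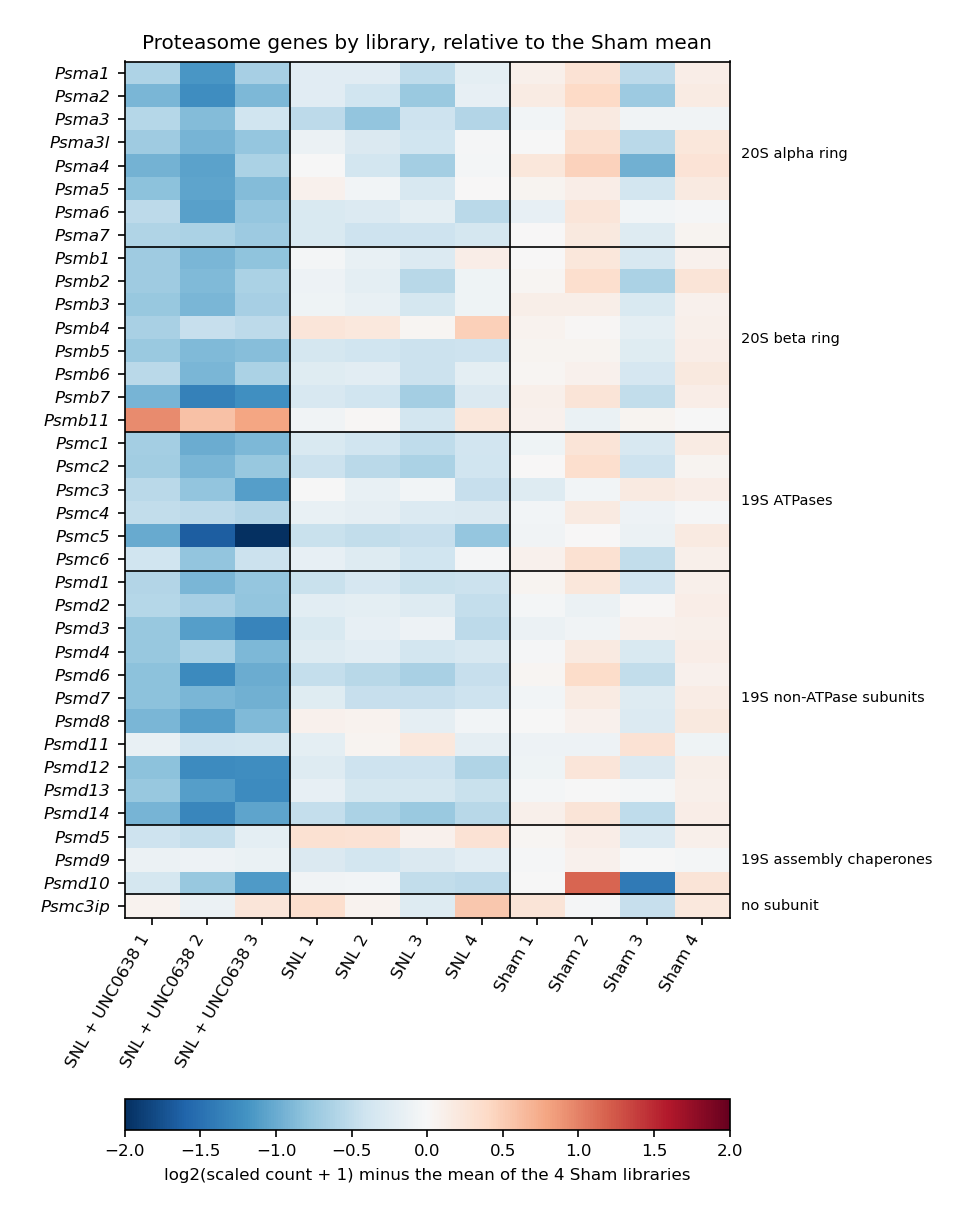
Values of the 37 tested members (rows, by structural role) in the 11 libraries (columns), as log2(scaled count + 1) minus the mean of the 4 Sham libraries; blue is below and red above that mean. The 3 SNL plus UNC0638 columns are blue in nearly every row, Psmb11 is red in all 3 of them, and the columns of SNL replicate 3 and Sham replicate 3 are bluer than most of their own group.

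With UNC0638 after ligation, against ligation alone, 22 of the 37 members fell, 1 rose and 14 were not called, where 14.3% of all tested genes were called lower and 13.5% higher. The median log2 fold change of the members was -0.50, against 0.01 for all genes, single members ranged from -1.05 (Psmc5) to 0.83 (Psmb11), and 35 were below 0, as were 49.5% of all genes. In 29 members every SNL plus UNC0638 library was below every SNL library, which 19.9% of all genes did, and in 2 (Psmb11 and Psmd9) every one was above, which 17.7% did. Every structural role held members that fell: 2 of 7 alpha subunits (beside the row Psma3l), 6 of 8 beta subunits, 4 of 6 ATPases, 8 of 11 non-ATPase subunits and 1 of 3 assembly chaperones. Without SNL plus UNC0638 replicate 1, 19 members were lower and 1 higher, with a median of -0.58, and Psma3l, Psmc4 and Psmd14 were no longer called (adjusted p = 0.052, 0.0707 and 0.0554). With the term for Sham replicate 3, SNL replicate 3 and the SNL plus UNC0638 libraries, 9 members were lower and 1 higher, the median was -0.24, and 5.36% of all genes were called lower.

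Among the alpha subunits, Psma5, a part of the outer ring, had 688, 583 and 662 scaled counts in the SNL plus UNC0638 libraries, against 1284, 1169, 974 and 1223 in the SNL libraries. The groups were far apart, and the log2 fold change was -0.85 (SE 0.15, adjusted p = 0.0027). Psma6 also fell (log2 fold change -0.46, adjusted p = 0.0392), although its libraries overlapped. Psma1, Psma2 and Psma7 were below SNL in every library but were not called (log2 fold changes -0.53, -0.64 and -0.28, adjusted p = 0.0633, 0.0646 and 0.0927).

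Psma3 and Psma3l, which share reads, were called differently. Psma3l had 626, 535 and 595 scaled counts in the SNL plus UNC0638 libraries, against 945, 839, 777 and 1007 in the SNL libraries (log2 fold change -0.60, SE 0.18, adjusted p = 0.0312). Psma3 had 475, 388 and 538 in the SNL plus UNC0638 libraries, against 493, 410, 530 and 472 in the SNL libraries (log2 fold change -0.04, SE 0.14, adjusted p = 0.86). Each row alone held fractions of a read, while their sum came within 0.0295 reads of a whole number in all 11 libraries, so that the split between them is uncertain. Summed, the pair had a log2 fold change of -0.38 (adjusted p = 0.0679).

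The beta ring held 6 members that fell and the only one that rose. Psmb4, a noncatalytic subunit, had 1722, 1968 and 1886 scaled counts in the SNL plus UNC0638 libraries, against 3213, 3156, 2775 and 3776 in the SNL libraries (log2 fold change -0.79, SE 0.13, adjusted p = 0.0018). Psmb1, also noncatalytic, had 1840, 1603 and 1729 in the SNL plus UNC0638 libraries, against 2956, 2736, 2505 and 3319 in the SNL libraries (log2 fold change -0.73, SE 0.14, adjusted p = 0.00436). In both genes the lowest SNL library lay well above the highest library with UNC0638. Psmb3, another noncatalytic subunit, fell by 0.61 on the log2 scale (adjusted p = 0.00726), and Psmb2 was not called (-0.51, adjusted p = 0.0867).

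All 3 catalytic subunits fell. Psmb7 (trypsin-like) had 1681, 1258 and 1370 scaled counts in the SNL plus UNC0638 libraries, against 2572, 2431, 2014 and 2632 in the SNL libraries (log2 fold change -0.75, SE 0.18, adjusted p = 0.0121). Psmb5 (chymotrypsin-like) had 1163, 1061 and 1084 in the SNL plus UNC0638 libraries, against 1532, 1484, 1452 and 1458 in the SNL libraries (log2 fold change -0.43, SE 0.11, adjusted p = 0.015). Psmb6 (caspase-like) had 1480, 1139 and 1383 in the SNL plus UNC0638 libraries, against 1823, 1859, 1596 and 1882 in the SNL libraries (log2 fold change -0.43, SE 0.14, adjusted p = 0.045). None of the 3 overlapped between these groups, but Psmb5 and Psmb7 were not called without SNL plus UNC0638 replicate 2 (adjusted p = 0.0521 and 0.0524), Psmb6 was called in 2 of 7 fits that left out a library, and none of the 3 was called with the term.

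Psmb11, the catalytic beta subunit of the thymus proteasome, had 171, 133 and 154 scaled counts in the SNL plus UNC0638 libraries, against 83.7, 89.6, 68.3 and 103 in the SNL libraries and 93.2, 80.7, 91.9 and 87.6 in the Sham libraries. It rose with UNC0638 against SNL (log2 fold change 0.83, SE 0.17, adjusted p = 0.00544, 1.77-fold) and against Sham (0.78, SE 0.17, adjusted p = 0.00295), and stayed called without any single library and with the term (0.95, adjusted p = 0.017). SNL and Sham libraries overlapped (log2 fold change -0.05, 95% interval -0.39 to 0.29). Psmb11 and Psmb5 are neighbours in the current annotation, on chromosome 15, and Psmb5 fell in the same comparison.

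**Figure D2:**
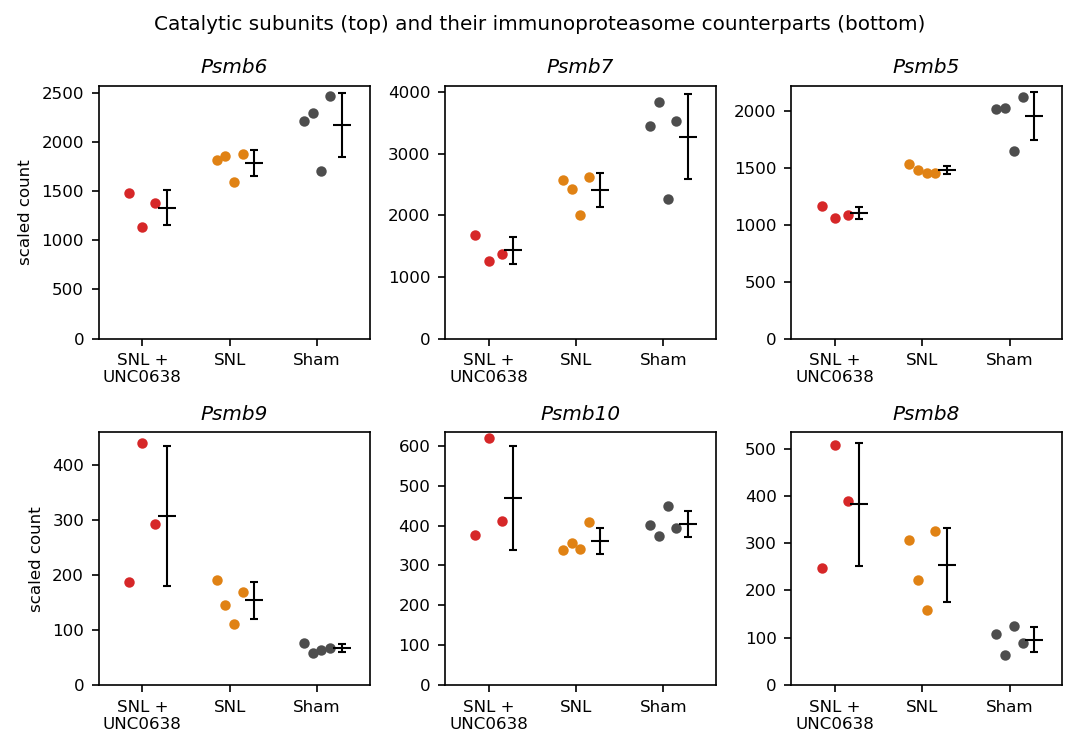
Scaled counts of the constitutive catalytic subunits Psmb6, Psmb7 and Psmb5 (top) and of their inducible counterparts Psmb9, Psmb10 and Psmb8 (bottom) in each library (points), with the group mean and SD as bars, for SNL plus UNC0638, SNL and Sham from left to right. The constitutive genes are lowest with UNC0638 (Psmb5 1061 to 1163, against 1452 to 1532 in SNL), while Psmb9 has its 2 highest values there (441 and 294).

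In the ATPase ring, Psmc5 had the lowest log2 fold change of all members. It had 1341, 859 and 611 scaled counts in the SNL plus UNC0638 libraries, against 1987, 1906, 1956 and 1576 in the SNL libraries (log2 fold change -1.05, SE 0.21, adjusted p = 0.00499), 2.08-fold below SNL. Its libraries with UNC0638 were spread widely but did not reach SNL. Psmc3 had 1544, 1289 and 1041 in the SNL plus UNC0638 libraries, against 2219, 2019, 2157 and 1625 in the SNL libraries (log2 fold change -0.64, SE 0.17, adjusted p = 0.0152). Psmc1 and Psmc4 fell by 0.46 and 0.31 on the log2 scale (adjusted p = 0.0352 and 0.0437), and Psmc2 and Psmc6 were not called (-0.29 and -0.33, adjusted p = 0.174 and 0.188), with Psmc6 at 0.01 with the term. Psmc5 and Psmc3 were the ATPases still called with the term (-1.03 and -0.79, adjusted p = 0.0335 and 0.0281).

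Of the non-ATPase subunits, Psmd8, a lid subunit, had the smallest p of all members. It had 1098, 961 and 1111 scaled counts in the SNL plus UNC0638 libraries, against 2187, 2166, 1821 and 1986 in the SNL libraries (log2 fold change -0.95, SE 0.13, adjusted p = 0.000949), 1.93-fold below SNL. Psmd13, also of the lid, had 1022, 803 and 725 in the SNL plus UNC0638 libraries, against 1545, 1360, 1351 and 1265 in the SNL libraries (log2 fold change -0.71, SE 0.13, adjusted p = 0.00288). Both genes were separate between the groups. Psmd3, Psmd12, Psmd7, Psmd14, Psmd4 and Psmd2 fell by 0.79, 0.68, 0.50, 0.50, 0.47 and 0.39 on the log2 scale (adjusted p between 0.00373 and 0.0498). They include the deubiquitinase Psmd14, the ubiquitin receptor Psmd4 and the scaffold Psmd2. Psmd1, Psmd6 and Psmd11 were not called (-0.34, -0.49 and -0.28, adjusted p = 0.101, 0.0602 and 0.157).

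The assembly chaperones differed among themselves. Psmd5 had 604, 576 and 704 scaled counts in the SNL plus UNC0638 libraries, against 996, 986, 858 and 989 in the SNL libraries (log2 fold change -0.61, SE 0.13, adjusted p = 0.00583). Psmd9 had 517, 526 and 511 in the SNL plus UNC0638 libraries, against 461, 436, 462 and 486 in the SNL libraries, all of them lower in SNL, but was not called (log2 fold change 0.17, 95% interval -0.03 to 0.37, adjusted p = 0.186). Psmd10 was low in all libraries, at 9.35 to 61.3, and was not called (-0.46, SE 0.49, adjusted p = 0.486, and 0.35 with the term). Psmc3ip had 38.6, 34.0 and 43.9 in the SNL plus UNC0638 libraries, against 47.0, 38.6, 30.8 and 53.8 in the SNL libraries, with overlap (log2 fold change -0.11, SE 0.26, adjusted p = 0.772).

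Leaving out each of the 7 libraries of the comparison in turn, between 13 and 23 members were lower. The lowest counts came without SNL plus UNC0638 replicate 2 or replicate 3 (13 each) and without SNL replicate 1 or replicate 2 (14 each). In every such fit 11 members stayed lower, namely Psma5, Psmb1, Psmb3, Psmb4, Psmc5, Psmd3, Psmd5, Psmd7, Psmd8, Psmd12 and Psmd13. With the term, 8 of the 22 stayed lower (Psma5, Psmb1, Psmb4, Psmc3, Psmc5, Psmd3, Psmd8 and Psmd13), and Psmd11 was added (-0.54, adjusted p = 0.0239). Without Sham replicate 3 and SNL replicate 3, 30 members were lower, with a median of -0.53.

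**Figure D3:**
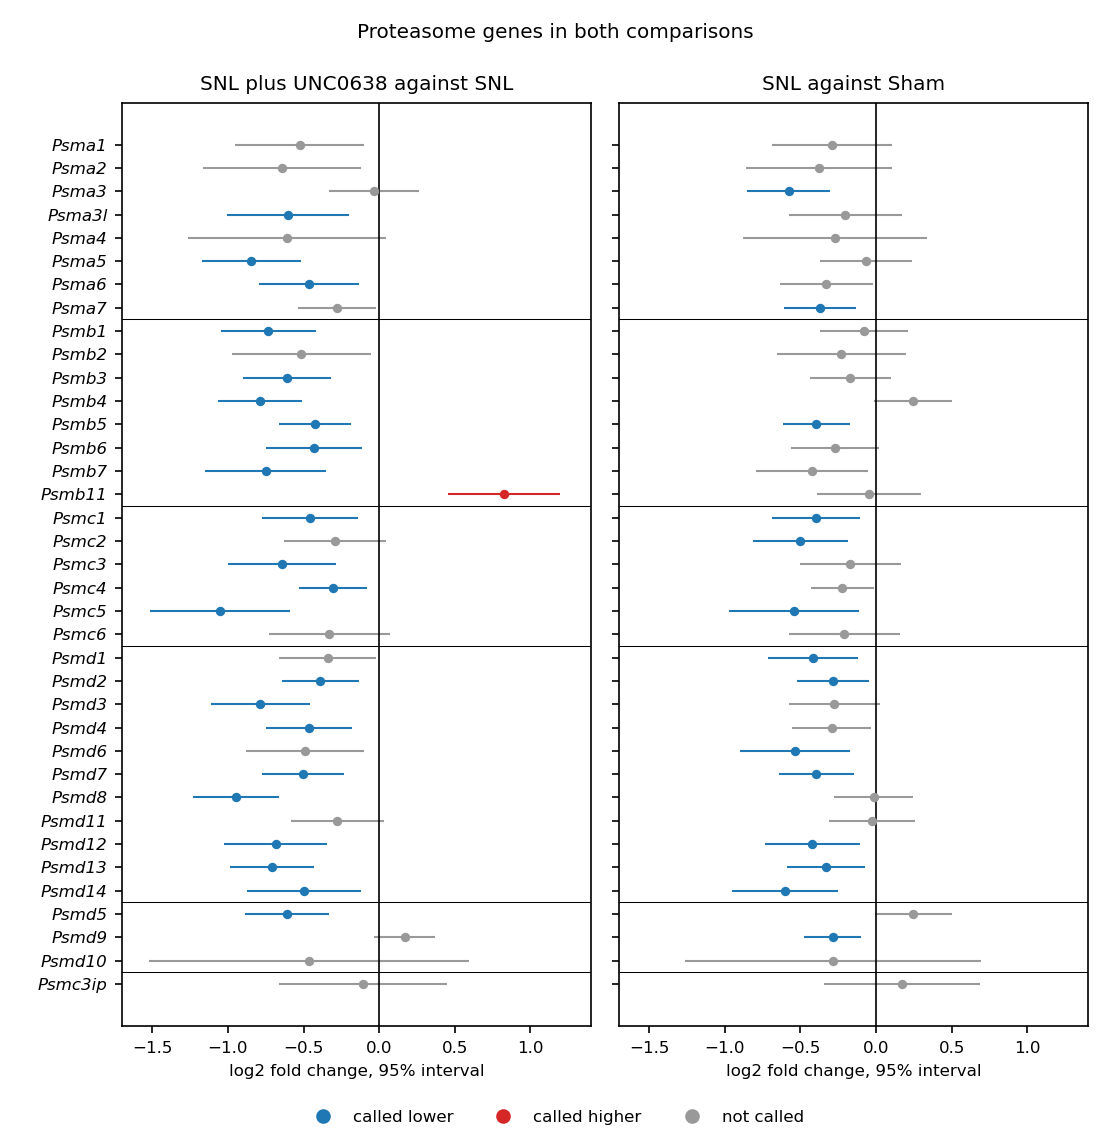
Log2 fold changes of the 37 tested members with 95% intervals as bars, by role, for SNL plus UNC0638 against SNL and for SNL against Sham; blue points were called lower, red ones higher and grey ones not called, at an adjusted p under 0.05. In the first comparison members run from -1.05 (Psmc5) to 0.83 (Psmb11) with 22 lower, and in the second from -0.60 (Psmd14) to 0.25 (Psmd5) with 14 lower.

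With ligation alone against Sham, the members' median change in the main fit was smaller than with UNC0638 against SNL (-0.50). That difference was not tested. With the term the counts stood in the other order, with 19 members lower for SNL against Sham and 9 for SNL plus UNC0638 against SNL. The counts that follow are from the main fit. Of 37, 14 fell, none rose and 23 were not called, where 23.4% of all tested genes were called lower and 24.8% higher. With limma no member was higher at an unadjusted p under 0.05 either, and limma-voom on estimated reads also called 0 higher. The median log2 fold change was -0.28, against 0.00 for all genes, and 34 of 37 members were below 0, as were 50.2% of all genes. In 9 members every SNL library was below every Sham library, which 21.2% of all genes did, so that this count was near the share of all genes. By role, 2 of 7 alpha subunits, 1 of 8 beta subunits, 3 of 6 ATPases, 7 of 11 non-ATPase subunits and 1 of 3 chaperones fell.

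Psmb5 was the catalytic subunit that fell with ligation. It had 1532, 1484, 1452 and 1458 scaled counts in the SNL libraries, against 2020, 2030, 1650 and 2126 in the Sham libraries, with no overlap (log2 fold change -0.39, SE 0.10, adjusted p = 0.00747). Psmb7 had 2572, 2431, 2014 and 2632 in the SNL libraries, against 3449, 3851, 2275 and 3533 in the Sham libraries, and Psmb6 had 1823, 1859, 1596 and 1882 in the SNL libraries, against 2220, 2299, 1711 and 2476 in the Sham libraries. Both overlapped through Sham replicate 3 and were not called (-0.42 and -0.27, adjusted p = 0.0579 and 0.113). A difference between catalytic subunits was not tested.

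Psma3 had 493, 410, 530 and 472 scaled counts in the SNL libraries, against 684, 804, 678 and 676 in the Sham libraries (log2 fold change -0.58, SE 0.13, adjusted p = 0.00304). Summed with Psma3l, with which it shares reads, the log2 fold change was -0.35 (adjusted p = 0.0485). Psma7 had 1888, 1751, 1756 and 1828 in the SNL libraries, against 2334, 2678, 1945 and 2433 in the Sham libraries (log2 fold change -0.37, SE 0.11, adjusted p = 0.0154). Neither gene overlapped between the groups.

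In the cap, the deubiquitinase Psmd14 had 1148, 1031, 960 and 1094 scaled counts in the SNL libraries, against 1719, 1920, 1131 and 1765 in the Sham libraries (log2 fold change -0.60, SE 0.16, adjusted p = 0.00897), overlapping through Sham replicate 3. Psmd7, its partner in the lid, had 1339, 1144, 1144 and 1186 in the SNL libraries, against 1528, 1771, 1317 and 1742 in the Sham libraries (log2 fold change -0.39, SE 0.11, adjusted p = 0.0144). The ATPase Psmc2 had 2211, 2071, 1937 and 2263 in the SNL libraries, against 3027, 3767, 2258 and 3124 in the Sham libraries (log2 fold change -0.50, SE 0.14, adjusted p = 0.0134). Psmd7 and Psmc2 also overlapped through Sham replicate 3. Psmc1 and Psmc5 also fell (-0.40 and -0.54, adjusted p = 0.0279 and 0.0392), as did Psmd1, Psmd2, Psmd6, Psmd12 and Psmd13 (-0.54 to -0.28). Psmc1 had 2529, 2370, 2203 and 2407 in the SNL libraries, against 2946, 3725, 2506 and 3498 in the Sham libraries, with overlap. The chaperone Psmd9 had 461, 436, 462 and 486 in the SNL libraries, against 551, 594, 559 and 546 in the Sham libraries, with no overlap (log2 fold change -0.29, SE 0.09, adjusted p = 0.0162).

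Several members that fell with UNC0638 were not called with ligation and lay near or above 0. Psmb4 had a log2 fold change of 0.24 (SE 0.12, adjusted p = 0.108) and Psmd5 of 0.25 (SE 0.12, adjusted p = 0.102), neither of them called. Psmd8, Psma5 and Psmb1 were at -0.02, -0.07 and -0.08 (95% intervals -0.28 to 0.25, -0.37 to 0.24 and -0.37 to 0.21). The comparisons share the SNL libraries.

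The count of members lower with ligation depended on single libraries. It was 7 without Sham replicate 4, 8 without Sham replicate 2, SNL replicate 2 or SNL replicate 4, and 24 without Sham replicate 3, and with values rescaled to the upper quartile it was 7. Upper-quartile scaling called 5685 of all genes in either direction, against 5824 in the main fit, which called 23.4% of all genes lower. These counts of members are not set against the share of all genes called lower in the same refit. In every fit that left out a library 6 members stayed lower, namely Psma3, Psma7, Psmb5, Psmc2, Psmd7 and Psmd14. With the term, 19 members were lower, among them all 14, and Psmb4 and Psmd5 were called higher (adjusted p = 0.0389 and 0.0317). Without Sham replicate 3 and SNL replicate 3, 20 were lower.

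Set against Sham, the ligated group with UNC0638 had 32 members lower and Psmb11 higher, where 26.0% of all tested genes were called lower and 25.5% higher. The median was -0.79, against -0.01 for all genes, 35 members were below 0, as were 50.6% of all genes, and 30 members had every SNL plus UNC0638 library below every Sham library, which 24.9% of all genes did. All 7 tested alpha subunits and the row Psma3l, 7 beta subunits and all 6 ATPases were lower, with 10 of 11 non-ATPase subunits. Psmc5, at 1341, 859 and 611 scaled counts in the SNL plus UNC0638 libraries, against 2575, 2697, 2474 and 3056 in the Sham libraries, was 3.02-fold lower (log2 fold change -1.60, SE 0.21, adjusted p = 0.000227). Psmb7 was 2.25-fold lower (-1.17, SE 0.18, adjusted p = 0.000475), Psmb5 1.77-fold (-0.82, SE 0.11, adjusted p = 0.000227) and Psmb6 1.63-fold (-0.70, SE 0.14, adjusted p = 0.00213). Psmd13 and Psmd8 were at -1.04 and -0.96 (adjusted p = 0.000155 and 0.00024), and Psmc1, Psma5 and Psma7 at -0.86, -0.91 and -0.65. The members not called were Psmd9, Psmd10, Psmd11 and Psmc3ip. Of the 32, 28 stayed lower without any single library and 27 with the term, with which the median was -0.56. Without SNL plus UNC0638 replicate 1, 30 members were lower, with a median of -0.86, and Psma4 and Psmd5 were no longer called (adjusted p = 0.0652 and 0.0743).

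**Figure D4:**
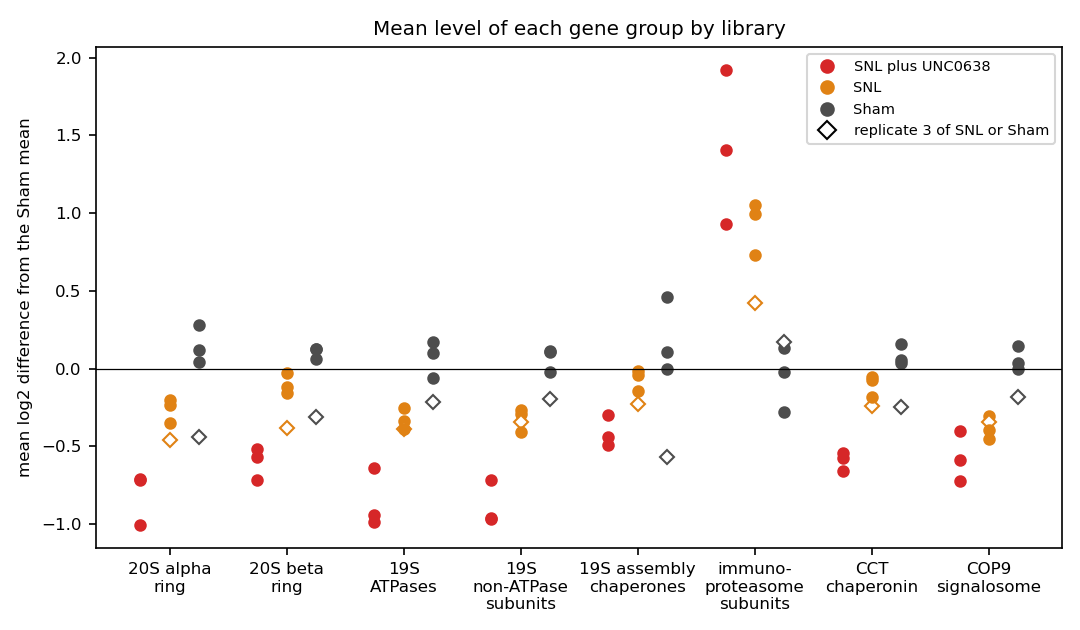
Mean log2 difference from the Sham mean over the genes of each structural role and of the immunoproteasome, CCT and COP9 lists, 1 point per library, with SNL plus UNC0638 on the left, SNL in the middle and Sham on the right of each group of genes; open diamonds are SNL replicate 3 and Sham replicate 3. In the alpha (Psma3l included), beta, ATPase, non-ATPase and CCT groups all 3 SNL plus UNC0638 points (-1.01 to -0.51) lie below every SNL and Sham point, and in the immunoproteasome group they lie between 0.93 and 1.92.

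The inducible beta subunits, which replace the catalytic ones in cells exposed to interferon and in immune cells, were not among the genes that fell. Psmb9, the counterpart of Psmb6, had 188, 441 and 294 scaled counts in the SNL plus UNC0638 libraries, against 191, 146, 112 and 169 in the SNL libraries and 76.5, 59.1, 63.9 and 67.6 in the Sham libraries. It was higher with UNC0638 than in SNL (log2 fold change 0.93, SE 0.26, adjusted p = 0.0224), though not without SNL plus UNC0638 replicate 2 (adjusted p = 0.098), and higher in SNL than in Sham (1.18, SE 0.24, adjusted p = 0.0022). Psmb8, the counterpart of Psmb5, was higher in SNL than in Sham (253 ± 78.5 against 95.9 ± 26.6, SD, n = 4 each; 1.38, SE 0.29, adjusted p = 0.00247) and not called with UNC0638 against SNL (0.59, SE 0.31, adjusted p = 0.174). Psmb10, the counterpart of Psmb7, was called in neither (0.34 and -0.16, adjusted p = 0.128 and 0.396).

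Markers of the cell types in the ganglion are set beside these values. Of all tested genes, 14.3% were called lower and 13.5% higher with UNC0638 against SNL. With ligation against Sham these shares were 23.4% and 24.8%. The 11 macrophage markers, all above 0 in all libraries, summed to between 10821 and 20132 in the SNL plus UNC0638 libraries, between 9827 and 18938 in the SNL libraries and between 2657 and 5513 in the Sham libraries. Of these macrophage markers, 10 were called higher in SNL than in Sham, and 1 was called higher with UNC0638 than in SNL (median log2 fold change 0.11). In SNL against Sham, Psmb8 and Psmb9 were called higher and Psmb10 was not called. The 9 T and NK cell markers summed to between 674 and 1195 with UNC0638, between 828 and 1169 in SNL and between 158 and 424 in Sham, most of it Cd4. Cd4 was at 145 to 408 in the Sham libraries, where Cd3e was at 0 to 1.56, so that the sum is no measure of T and NK cells. Of the 8 of these markers tested, 3 were called higher with UNC0638 than in SNL (Cd8a, Cd8b and Nkg7), and Gzmb was called lower. In 5, every SNL plus UNC0638 library was above every SNL library, which 17.7% of all genes did. The median log2 fold change was 1.32. Gzmb had 2.69, 55.7 and 54.2 scaled counts in the SNL plus UNC0638 libraries, lowest in replicate 1, against 114 to 219 in SNL. Cd8b and Nkg7 were at no more than 23.2 in any library. Leaving out single libraries gave 0 to 2 of these markers higher and 0 to 1 lower. The term gave 2 higher and 0 lower. In SNL against Sham, 7 of the 8 were called higher. The 6 sensory neuron markers in the table summed to between 72088 and 81803 with UNC0638, between 132015 and 164703 in SNL and between 123541 and 149799 in Sham, and this sum was mostly Tubb3, Prph and Uchl1. Those 3 genes were called lower with UNC0638 than in SNL, while Snap25, Isl1 and Rbfox3 were not called and lay above 0 (log2 fold changes 0.50, 0.40 and 0.39). The median of the 6 was -0.18. In SNL against Sham, 4 of the 6 were called lower and Tubb3 higher (median -0.80), although the sums overlapped, and with UNC0638 against Sham all 6 were called lower (median -1.03). The 9 fibroblast and endothelial markers, 1 of them at 0 in all libraries, summed to between 38456 and 93926 with UNC0638, between 86351 and 217837 in SNL and between 24318 and 34115 in Sham. The 7 markers of satellite glia and Schwann cells summed to between 34502 and 40646 with UNC0638, between 43630 and 56514 in SNL and between 42250 and 45525 in Sham. The part of cell composition in the members' values was not tested, and fewer cells of a type cannot be told apart from less RNA per cell in whole ganglia.

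Of the 4 factors that assemble the core, 3 fell with UNC0638 against SNL, where 14.3% of all tested genes were called lower. Pomp, the maturation protein of the beta ring, had 700, 475 and 569 scaled counts in the SNL plus UNC0638 libraries, against 1250, 1103, 976 and 1256 in the SNL libraries (log2 fold change -0.99, SE 0.19, adjusted p = 0.00356). The alpha ring chaperone Psmg1 fell by 0.82 (SE 0.15, adjusted p = 0.0035), and Psmg4 by 0.77 (adjusted p = 0.0236, and 0.0852 without SNL plus UNC0638 replicate 1), on the log2 scale. Pomp and Psmg1 stayed called with the term (adjusted p = 0.0372 each). With ligation against Sham, Psmg2 alone of the 4 was lower (-0.53, adjusted p = 0.0132), near the 23.4% of all tested genes called lower.

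Among the 5 genes of activators and of the inhibitor, Psme1, a subunit of the interferon-inducible activator PA28, was 543, 777 and 653 in the SNL plus UNC0638 libraries, against 1024, 902, 779 and 1029 in the SNL libraries and 438, 511, 497 and 453 in the Sham libraries. It was higher in SNL than in Sham (log2 fold change 0.97, SE 0.13, adjusted p = 0.000215) and lower with UNC0638 than in SNL (-0.51, SE 0.14, adjusted p = 0.0223, 0.146 with the term and 0.0847 without SNL plus UNC0638 replicate 1). Psmf1, the inhibitor, was lower in SNL than in Sham (-0.50, adjusted p = 0.00543). Psme2, Psme3 and Psme4 were called in neither comparison. Of 6 proteins that associate with the cap, Uchl5 and Usp14, both deubiquitinases, fell with ligation (-0.75 and -0.64, adjusted p = 0.00405 and 0.00711), and limma called 0 of the 6 with UNC0638 against SNL, where 1 was lower at an unadjusted p under 0.05 and limma-voom called 0.

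Of the genes that act on proteasome transcription, Nfe2l1 was lower with ligation. It had 1568, 1295 and 1138 scaled counts in the SNL plus UNC0638 libraries, 1027, 1185, 1314 and 904 in the SNL libraries, and 2009, 2048, 2113 and 2170 in the Sham libraries. The log2 fold change was -0.93 in SNL against Sham (SE 0.13, adjusted p = 0.000293) and 0.27 with UNC0638 against SNL (SE 0.15, adjusted p = 0.179). Ngly1, which removes the glycans of the Nfe2l1 protein, fell with ligation (-0.47, adjusted p = 0.0015), and Nfe2l2, a related factor of the oxidative stress response, rose (0.50, adjusted p = 0.00511). Ddi2, the protease that activates Nfe2l1, rose with UNC0638 against SNL (0.72, SE 0.19, adjusted p = 0.017), though not without SNL plus UNC0638 replicate 2 (adjusted p = 0.0622) nor with the term (adjusted p = 0.195). Of the 7 members with TGACNNNGC in the promoter, Psmb5, Psmb6 and Psmd3 were called lower with UNC0638 against SNL, and Psma3, Psmb5, Psmd1 and Psmd9 with ligation against Sham. Of all 37 tested members, 22 and 14 were called lower in these comparisons, as were 14.3% and 23.4% of all tested genes. A link between the motif and the calls was not tested.

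Genes of ubiquitin and its activating enzymes were also read. Ubb, a polyubiquitin gene, fell with UNC0638 against SNL. It had 8232, 5276 and 5845 scaled counts in the SNL plus UNC0638 libraries, against 15810, 15573, 11266 and 13155 in the SNL libraries (log2 fold change -1.13, SE 0.22, adjusted p = 0.00409). Rps27a, which encodes ubiquitin fused to a ribosomal protein, fell by 0.55 on the log2 scale (adjusted p = 0.0124), and the activating enzymes Uba1 and Uba6 were not called. With ligation, Rps27a rose (0.36, adjusted p = 0.0329) and Uba6 fell (-0.56, adjusted p = 0.0113). Of 8 tested genes that deliver substrates, Vcp, the segregase, and Rad23b, a shuttle, fell with UNC0638 (-0.49 and -0.54, adjusted p = 0.00836 and 0.0245), and Ubqln1 and Sqstm1 with ligation (-0.53 and -0.33, adjusted p = 0.00354 and 0.0237). Of all tested genes, 14.3% and 23.4% were called lower in these comparisons.

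For comparison, 2 other complexes of 8 subunits each were read in the same way. The CCT chaperonin, which folds actin and tubulin, had 6 of 8 subunits lower with UNC0638 against SNL, with a median of -0.48, and Cct3 had the smallest p (-0.57, SE 0.11, adjusted p = 0.00434). With ligation limma called 0 of its 8, with 2 lower at an unadjusted p under 0.05, 0 by limma-voom, and a median of -0.17. The COP9 signalosome, which is built like the lid, had 1 of 8 subunits lower with UNC0638 (Cops5, -0.72, adjusted p = 0.0231; median -0.22) and 4 of 8 lower with ligation (median -0.36), among them Cops8 (-0.51, SE 0.09, adjusted p = 0.00106). Of all tested genes, 14.3% were called lower with UNC0638 against SNL and 23.4% with ligation against Sham, and 13.5% and 24.8% higher. The 1 of 8 COP9 subunits with UNC0638 is near that share. So are, with ligation, the 1 of 4 core assembly factors and the 2 of 8 delivery genes that were lower. The 1 of 11 macrophage markers higher with UNC0638 is no more than the share of all genes. The counts of the other gene lists above are to be read against the same shares. No test of a difference between these complexes and the proteasome was made.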

How the data were processed

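Strand-specific libraries were prepared from rRNA-depleted total RNA, per the labels' protocols, and 11 libraries were sequenced on an Illumina instrument (single-end, 50 bases), per the series' design text. RNA was extracted with Trizol or with RNeasy. The sources used here do not say which sample had which reagent, so that reagent and group cannot be told apart. The submitters' processing notes name TopHat2 2.0.9, Cuffdiff 2.1.1 and rat build rn4. The annotation, the use of strand and the handling of shared reads are unknown here, and RefSeq lists 35 pseudogenes of such subunits (from 15 parents) that could share reads with the members.

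The deposited signal is a scaled count per gene, made by the authors with 1 factor per library, as read from the values: 98.98% to 99.25% of low values were whole multiples of the value of 1 read (0.429 to 1.56; tolerance 0.02 reads).

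A gene was tested if 3 or more libraries had a value of 10 or more (12087 genes). limma (3.58.1, R 4.3.3, statmod 1.5.0) was applied to log2(value + 1), using group means over all 11 libraries and eBayes with trend and robust estimation. Tests were two-sided, with Benjamini-Hochberg adjustment over all tested genes, and the fit was tested on simulated data. Members and lists were chosen with earlier results of these data known. Symbols were matched to RefSeq (37 by symbol, 1 by synonym). In the 2 comparisons with SNL, values per library are given per structural role for the 2 called members with the smallest p. They are also given for the catalytic subunits, Psmb11 and Psmc3ip. For SNL plus UNC0638 against Sham, most such members have fold changes only. Of the related lists, the 2 members with the smallest p per comparison and Psmb8, Psmb9, Psmb10 and Nfe2l1 are named. Any other gene was named after its values were seen. Some genes of the ubiquitin list are not reported here. Replicate numbers were not used to pair the samples in the main fit.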

Additional observations from a re-analysis of the deposited data

Results flagged for a closer look

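In 2 of 44 groups of 4 libraries (the SNL or the Sham libraries of the 21 members with values per library given and of the members' sum), 1 library stood apart from the others by Dixon's criterion, where chance gives about 1 in 20. Psma3 had 803.9 scaled counts in Sham replicate 2, against 675.8 to 683.6 in the other Sham libraries, and it shares reads with Psma3l, which was also highest in that library. Psmd5 had 857.5 scaled counts in SNL replicate 3, against 985.6 to 996.1 in the other SNL libraries. SNL replicate 3 was the lowest SNL library for 23 of the 37 tested members.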

How the results depend on the processing

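With UNC0638 against SNL, between 13 and 23 members were lower when single libraries were left out (all genes called: 2080 to 4031, against 3359). A term for Sham replicate 3, SNL replicate 3 and the SNL plus UNC0638 libraries gave 9 members lower, a median of -0.2434 and 1289 genes called. The replicate number as a block gave 14 members lower and 2129 genes called. Same-numbered libraries did not deviate together throughout. Their r over genes ran from -0.446 (SNL replicate 3 and SNL plus UNC0638 replicate 3) to 0.431 (Sham replicate 3 and SNL replicate 3). These values do not settle whether the numbers pair libraries. The block gave 13 (SNL against Sham) and 30 (SNL plus UNC0638 against Sham) members lower. Without Sham replicate 3 and SNL replicate 3, an alternative chosen after seeing the data, 5348 genes were called. At an adjusted p under 0.01, 1307 genes were called and 10 members were lower. For SNL against Sham, members lower ranged from 7 to 24 over single libraries left out; upper-quartile scaling gave 7, an adjusted p under 0.01 gave 3 (3781 of all genes called), and the term gave 2 members higher. For SNL plus UNC0638 against Sham, 28 to 33 members were lower over single libraries left out, the term gave a median of -0.5604, and an adjusted p under 0.01 gave 4130 genes called. Median-of-ratios scaling, other pseudocounts, other filters, eBayes without robust estimation, fits of 2 groups, limma-voom on estimated reads and the sum of Psma3 and Psma3l kept each count within 1.5 times its value. The cause of these shifts was not tested. The share of all genes called lower is given here only for the main fits and for the term in SNL plus UNC0638 against SNL.

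Over the 37 tested members, signs changed in 5 members for SNL plus UNC0638 against SNL, 5 for SNL against Sham and 2 for SNL plus UNC0638 against Sham, none of them called in that comparison. With the term, SNL plus UNC0638 against SNL was at 0.35 for Psmd10, 0.08 for Psma4 and 0.01 for Psmc6 (-0.46, -0.61 and -0.33 without it), and SNL plus UNC0638 against Sham at 0.06 for Psmd10 (-0.75 without it). For SNL against Sham, Psmd10 was at 0.11 without Sham replicate 2, and Psmd11 at 0.036 with upper-quartile scaling and up to 0.069 over single libraries left out. For SNL against Sham, Psmb11 was at 0.014 with upper-quartile scaling, 0.076 without both replicates 3, and -0.139 to 0.057 over single libraries left out; Psmd8 was at 0.046 with upper-quartile scaling and -0.109 to 0.047 over single libraries left out; Psma5 was at -0.190 to 0.017 over single libraries left out. For SNL plus UNC0638 against SNL, Psmc3ip was at 0.34 with the term and -0.248 to 0.014 over single libraries left out, and Psma3 was at 0.018 without both replicates 3 and -0.143 to 0.092 over single libraries left out. For SNL plus UNC0638 against Sham, Psmc3ip was at -0.089 without both replicates 3 and -0.089 to 0.154 over single libraries left out. Over all alternatives for the 21 members with values per library given, 1217 values kept direction and side of the threshold, 92 lost the call, 13 gained it and 16 changed sign. DESeq2 and edgeR, listed for the case of whole reads, were not run because the values hold fractions of a read. Depth is known only as an estimate, and Psmd10 and Psmc3ip rest on few reads.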
